A study of Mus musculus with 15 samples.

Results

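Livers of newborn mice exposed to arsenic before birth were compared with livers of unexposed newborns on 6 of the 15 arrays of the series. The arrays were chosen by their titles, 3 of newborn pups whose dams drank arsenic and 3 of newborn pups whose dams drank tap water. Each array held total liver RNA of 1 mouse, and each mouse came from a separate litter. Dams of the PND1 arsenic group were given sodium arsenite at 85 mg/L in their drinking water, which is 49 ppm of arsenic, beginning on gestational day 8 and ending at birth, and dams of the PND1 control group drank arsenic-free tap water. PND1 stands for the day of birth. Every mouse, controls included, lacked functional apolipoprotein E according to the study's methods, while the array labels give the strain as C57/BL6J. Unexposed mice of 10 weeks (PND70 control, n = 3) gave the normal change with age, and mice of 10 weeks exposed before birth (PND70 arsenic, n = 3) shared the estimate of the spread.

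The liver of a newborn mouse is still a site of blood cell formation as well as a metabolic organ. Transcripts of dividing and blood-forming cells are normally lost after birth, while transcripts of adult metabolism, such as drug-metabolizing cytochromes P450, rise. Inorganic arsenic crosses the placenta, binds thiol groups of proteins and provokes oxidative stress. In RNA from a whole organ, fewer cells of a type and less RNA per cell cannot be told apart.

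Each array carried 60-base probes and was hybridized with liver RNA in Cy3 and with RNA pooled from 11 mouse cell lines in Cy5. A level is given as the log2 ratio of liver over this reference, and a difference is arsenic minus control on the same log2 scale. Over the 6 arrays the median Cy3 signal over background ranged from 109 to 177 and the median Cy5 signal from 257 to 377. Between 91.0% and 95.6% of probes had a Cy3 signal above that of 95% of an array's negative controls. The 3 arsenic arrays were processed by the scanner software before the 3 control arrays within 1 day, so this order and the exposure cannot be told apart. No table of gene names for these probes was used here, so most probes are described by their own identifiers, their position in the genome was not determined, and the tissue was not checked against whole lists of markers.

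The probe sequences that the results turn on are shown here, read from the array files, 5′ to 3′. Z00049697-1 had the largest fall of any called probe. Z00063258-1 was the 1 probe that passed adjustment for multiple testing, and Z00028025-1 shares 43 bases with it. Z00068262-1 rose and shares 29 bases with Z00006569-1, and Z00035148-1 and Z00057355-1 fell and share 36 bases. Capitals mark the longest run that the 2 probes of a pair share, and the pairs were chosen after their values were seen.

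Z00049697-1: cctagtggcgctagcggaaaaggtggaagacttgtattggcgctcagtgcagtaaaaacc
Z00063258-1: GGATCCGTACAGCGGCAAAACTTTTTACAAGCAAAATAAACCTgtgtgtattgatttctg
Z00028025-1: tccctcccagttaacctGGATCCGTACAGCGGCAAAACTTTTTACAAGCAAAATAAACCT
Z00006569-1: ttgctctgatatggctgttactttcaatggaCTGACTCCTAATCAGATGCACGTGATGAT
Z00068262-1: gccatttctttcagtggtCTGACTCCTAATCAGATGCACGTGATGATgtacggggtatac
Z00035148-1: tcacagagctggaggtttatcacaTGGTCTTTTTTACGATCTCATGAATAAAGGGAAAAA
Z00057355-1: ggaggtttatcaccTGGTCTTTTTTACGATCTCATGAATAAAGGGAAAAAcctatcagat

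A family of 5 probes with shared sequence is shown for its low values in exposed mice. Of the 5, 4 were called lower, beside 1.04% of all probes. Capitals mark the 21 bases that all 5 share.

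Z00030500-1: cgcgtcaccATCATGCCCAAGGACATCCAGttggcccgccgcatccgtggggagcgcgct
Z00030505-1: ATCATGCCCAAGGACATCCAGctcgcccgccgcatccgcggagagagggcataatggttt
Z00030778-1: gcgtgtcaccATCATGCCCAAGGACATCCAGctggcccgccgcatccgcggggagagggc
Z00030944-1: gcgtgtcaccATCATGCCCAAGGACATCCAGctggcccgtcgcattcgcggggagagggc
Z00032027-1: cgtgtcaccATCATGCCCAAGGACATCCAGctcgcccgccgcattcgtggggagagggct

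Which transcripts of the newborn liver differed after exposure before birth was tested over 42006 probes with limma. At a p of 0.01, the value the study's methods name and taken here as unadjusted, 1074 probes were called (2.56% of those tested), 637 higher (1.52%) and 437 lower (1.04%) in arsenic-exposed livers. A threshold of 0.01 alone gives about 420 probes where nothing differs, and a fit to the 6 newborn arrays alone called 399. The 1074 calls drew their spread from the 10-week arrays as well, and whether the spread is equal at both ages was not tested. Higher calls made up 59.3% of the 1074, but 35.6% of the calls in the liver channel alone and 44.8% without PND1 control replicate 1. After Benjamini-Hochberg adjustment in limma, 1 probe (0.00238%) had an adjusted p below 0.05, and 4240 probes (10.1%) had an unadjusted p below 0.05. The arsenic and control values did not overlap for 930 of the 1074 called probes, and for 12% of the 41240 probes measured on all 6 arrays. Most called differences were modest. The median size was 0.40 for the lower and 0.36 for the higher probes, and 20 lower and 12 higher probes differed by at least 1, which is 2-fold. Leaving out the library labelled PND1 arsenic replicate 1 raised the number called to 2932 and the number with an adjusted p below 0.05 to 1378. Leaving out PND1 arsenic replicate 3 lowered the number called to 670.

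Z00063258-1 fell in arsenic-exposed livers. Its level was 1.63, 1.57 and 1.61 in the 3 controls and 0.89, 0.78 and 0.96 in the 3 exposed mice. The groups were far apart for the spread within them, with 1.60 ± 0.031 (SD, n = 3) in controls against 0.88 ± 0.093 (SD, n = 3). The difference was -0.73 ± 0.059 (SE), a 1.66-fold lower level, with a limma adjusted p of 0.0032. Over 17 alternative fits its limma adjusted p ranged from 0.00017 to 0.77 and was below 0.05 in 12. In unexposed mice of 10 weeks its level was -0.23. The probe Z00028025-1, which shares 43 bases with it, read 0.67, 0.56 and 0.25 in controls and 0.31, 0.15 and 0.17 in exposed mice, and its difference of -0.28 ± 0.13 (SE) did not pass the threshold (limma adjusted p = 0.51).

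Z00049697-1 had the largest fall among the called probes. Its level was 4.0, 3.28 and 2.85 in controls and 1.70, 1.13 and 1.51 in exposed mice. The lowest control stood above the highest exposed mouse, a separation that the choice of named probes required. The difference was -1.93 ± 0.23 (SE), a 3.81-fold lower level, with a limma adjusted p of 0.083. At 10 weeks the controls read -0.27, -0.26 and -0.28.

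The next 3 lower probes by p were Z00001151-1, Z00044883-1 and Z00017884-1, each with a limma adjusted p of 0.13. Z00001151-1 lay below the reference on every newborn array and read -2.16, -2.52 and -2.34 in controls against -3.13, -3.42 and -3.49 in exposed mice. Z00044883-1 read 0.65, 0.48 and 0.44 in controls against 0.046, -0.27 and -0.26 in exposed mice. Z00017884-1, with a mean log2 Cy3 signal of 14.18, read 1.39, 1.02 and 0.93 in controls against 0.46, 0.024 and 0.070 in exposed mice. The groups did not overlap for any of the 3, which was a condition for naming them. In each, the first exposed mouse stood closest to the controls. Their differences were -1.01 ± 0.13, -0.69 ± 0.098 and -0.93 ± 0.14 (SE). All 5 lower probes normally decline with age, with differences from -3.64 to -1.11 between birth and 10 weeks. Each exposed newborn mean lay between the unexposed newborn mean and the unexposed mean of 10 weeks. The 5 were chosen for their fall from the same newborn controls that give the age difference, so a high control value moves both.

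**Figure D1:**
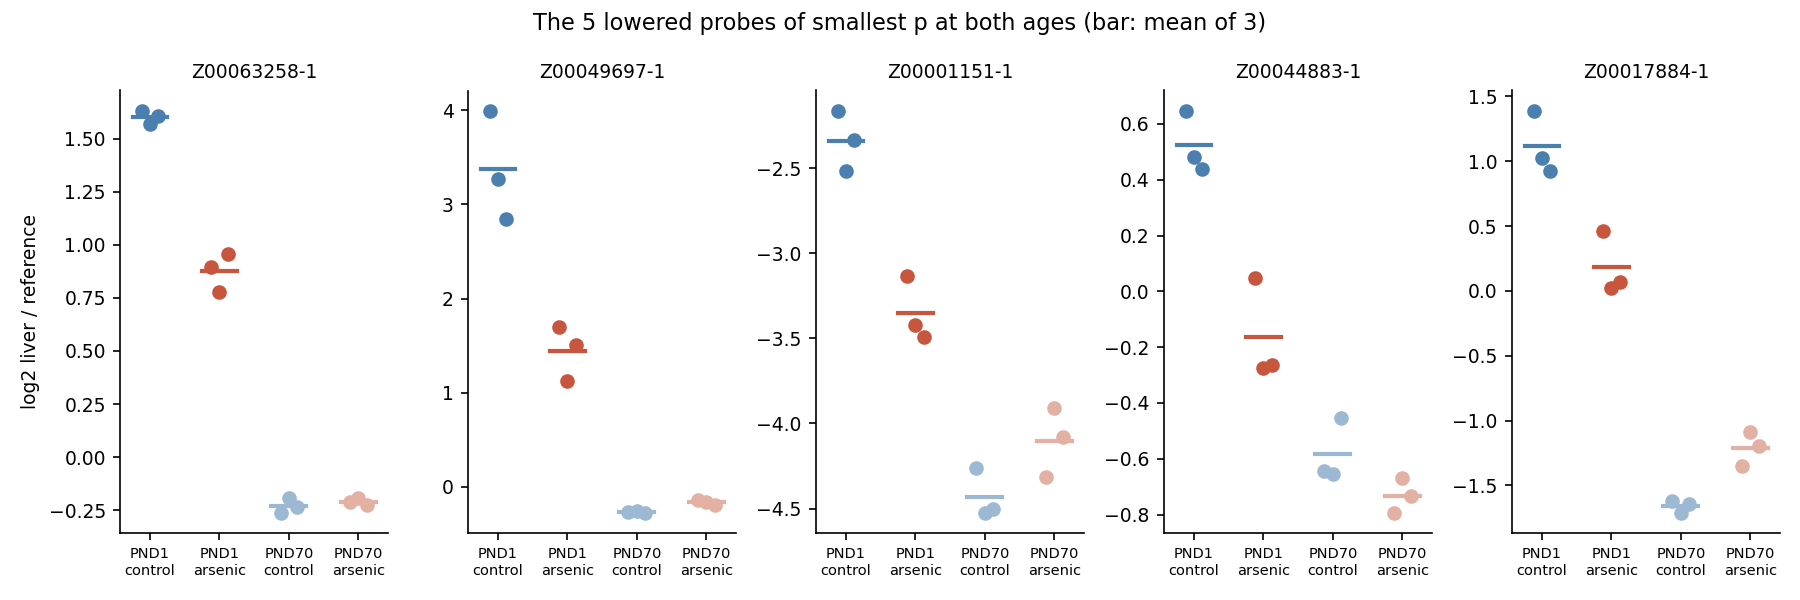
Level (log2 liver over reference) of the 5 lower probes with the smallest p on each of 12 arrays, with a bar at each group's mean of 3. In every panel the PND1 arsenic arrays lie below the PND1 control arrays and above the PND70 control arrays. The probes were chosen for being lower than the PND1 controls, which also give the difference with age.

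The 5 higher probes with the smallest p had smaller differences in the ratio, from 0.39 to 0.54. In the liver channel alone Z00034897-1 differed by 0.050 (limma unadjusted p = 0.67), against -0.43 in the reference channel, and Z00023335-1 by 0.24 (limma unadjusted p = 0.031), so neither kept its call there. Z00023335-1 read -0.45, -0.41 and -0.49 in controls against -0.026, -0.11 and -0.055 in exposed mice. Z00034897-1 read -0.38, -0.30 and -0.27 in controls against 0.17, 0.23 and 0.052 in exposed mice. Z00068262-1 read -1.19, -1.04 and -1.17 in controls against -0.74, -0.74 and -0.63 in exposed mice. The groups did not overlap for these 3, as their choice required. Their differences were 0.39 ± 0.053, 0.46 ± 0.066 and 0.43 ± 0.062 (SE), each with a limma adjusted p of 0.13. Z00023218-1 and Z00008804-1 were 0.54 ± 0.085 and 0.54 ± 0.086 (SE) higher, with a limma adjusted p of 0.14. None of the 5 differed by 1 or more with age in unexposed mice, and the nearest was Z00068262-1, with a level 0.92 higher at 10 weeks.

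Z00024186-1 had the largest rise among the called probes, and 2 mice carried it. It read -0.22, -0.063 and -0.038 in controls and 3.15, 0.18 and 3.74 in exposed mice. The second exposed mouse stood just above the controls while the other two were far higher. The difference was 2.46 ± 0.67 (SE), with a limma adjusted p of 0.32, and the probe stayed past an unadjusted p of 0.01 in 1 of 6 fits that left out 1 newborn array.

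**Figure D2:**
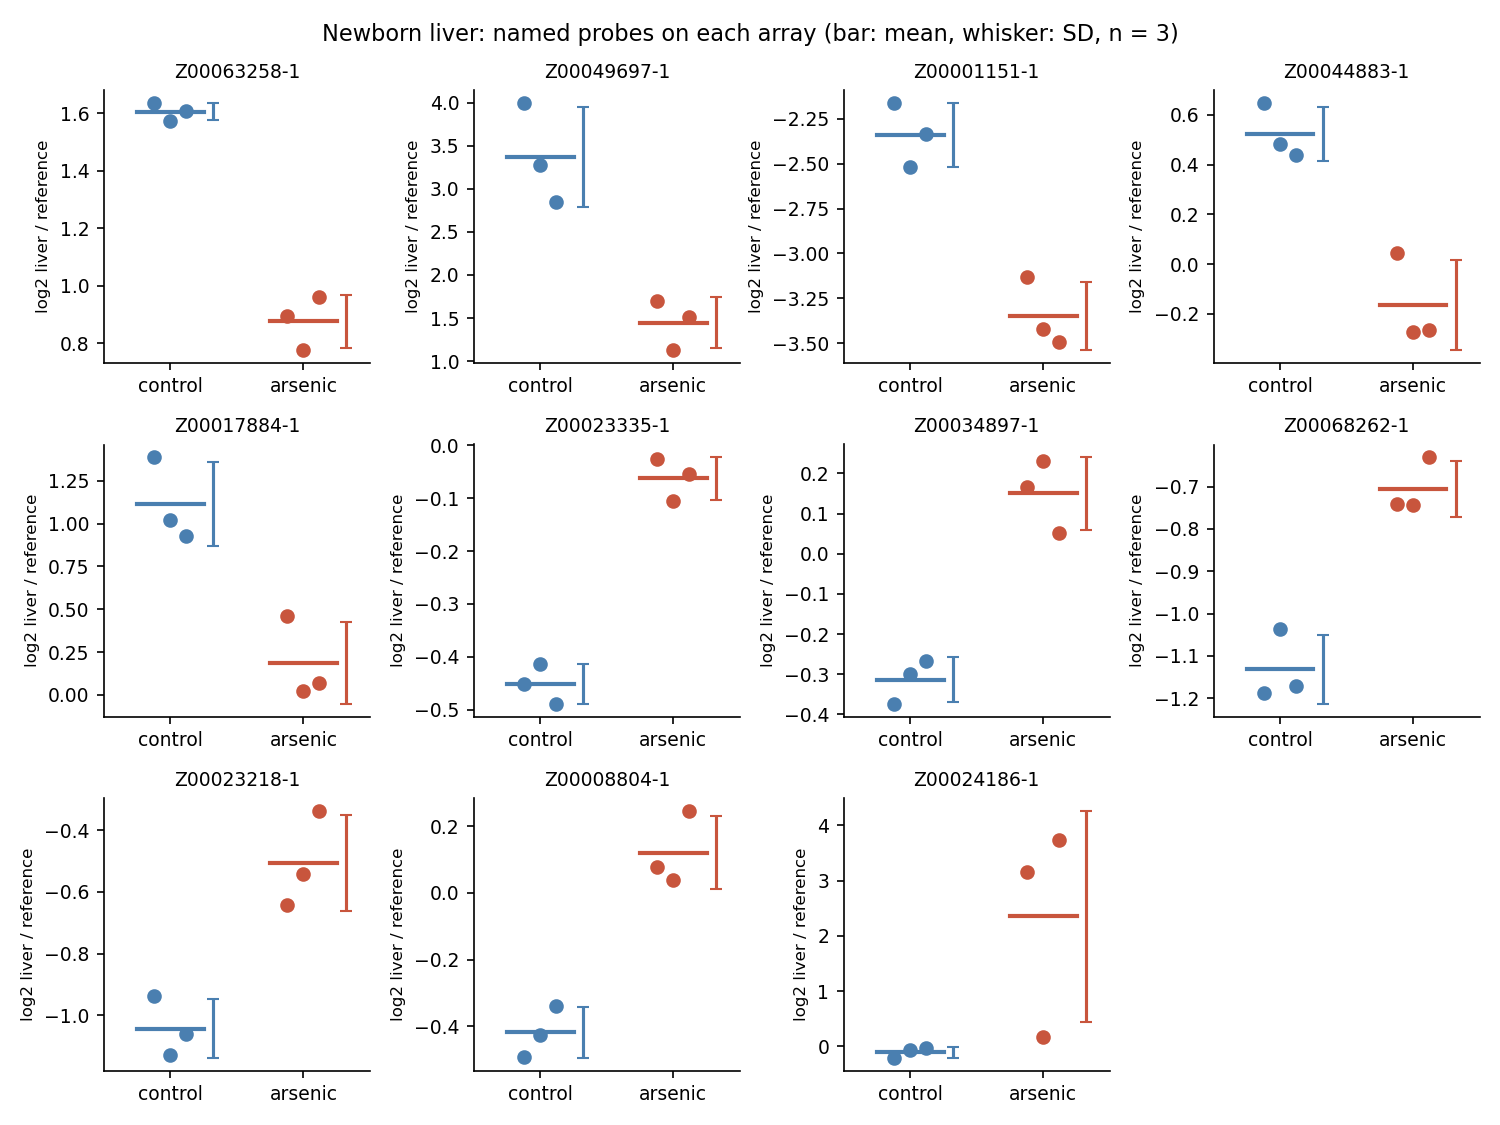
Level (log2 liver over reference) of the 11 named probes on each of the 6 newborn arrays, with the mean as a bar and the SD as a whisker (n = 3). The groups do not overlap in any panel, which was a condition of choice for all but Z00024186-1. In Z00024186-1 the 3 exposed mice range from 0.18 to 3.74.

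Effects were next described by abundance, in 5 equal classes of the mean log2 Cy3 signal of the newborn arrays. The share of probes called rose from 1.81% in the dimmest class through 2.11%, 2.48% and 3.12% to 3.27% in the brightest, beside 2.56% over all probes. The direction changed in the brightest class. In the 4 dimmer classes, 62.5% to 67.3% of the called probes were higher in exposed livers, whereas in the brightest class 115 were higher and 160 lower. With 10 equal classes, the brightest held 57 higher and 104 lower. The excess of higher calls in the dimmer classes was lost in other fits chosen after seeing the data. Higher calls made up 27.9% to 52.4% in these 4 classes in the liver channel alone and 46.4% to 51.0% without PND1 control replicate 1, while in the brightest class they were 43.6% and 35.8%. Probes called with a difference of at least 1 numbered 1, 1, 5, 8 and 17 from dim to bright, and the median standard error also rose, from 0.085 in the dimmest class to 0.12 in the brightest.

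By liver-over-reference level, calls were most frequent where liver and reference differed most. Of the 37586 probes within 1 log2 unit of the reference, 2.13% were called. Of the 874 probes at least 2 above the reference, which are transcripts far more abundant in liver than in the cell lines, 7.55% were called, 26 higher and 40 lower. Of the 1598 probes between 1 and 2 above it, 6.45% were called, 44 higher and 59 lower. Below the reference the directions differed by class. Of the 1599 probes between 1 and 2 below it, 62 were higher and 21 lower, and of the 349 probes at least 2 below it, 8 were higher and 14 lower. The excess of higher calls between 1 and 2 below was not seen in the liver channel alone, which called 7 higher and 37 lower there. Over that class the median difference was -0.041 in the liver channel and -0.080 in the reference channel. The median difference over all 874 probes at least 2 above was 0.015. The median standard error was 0.17 in that class and 0.089 within 1 of the reference. With the same RNA on every array, the reference channel alone called 3.78% of probes at least 2 above. The share was 2.19% at 1 to 2 above, 1.75% at 1 to 2 below and 0.86% at least 2 below, beside 1.58% of all probes. What the reference channel contributed to the calls above the reference was not tested.

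By direction of the normal change with age, lower calls were most frequent among probes that normally decline. In unexposed mice 2739 probes (6.52%) were lower and 1501 (3.57%) higher at 10 weeks than at birth, at a limma adjusted p below 0.05 and a difference of at least 1. Of the 437 probes lower in exposed newborns, 171 (39.1%) belonged to the class that normally declines and 7 (1.60%) to the class that normally rises. Of the 637 higher probes, 25 (3.92%) belonged to the declining and 47 (7.38%) to the rising class. Of the declining probes 7.16% were called, of the rising ones 3.60%, and of the rest 2.18%. Both comparisons use the same 3 newborn control arrays, so a low or high control value moves them together.

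**Figure D3:**
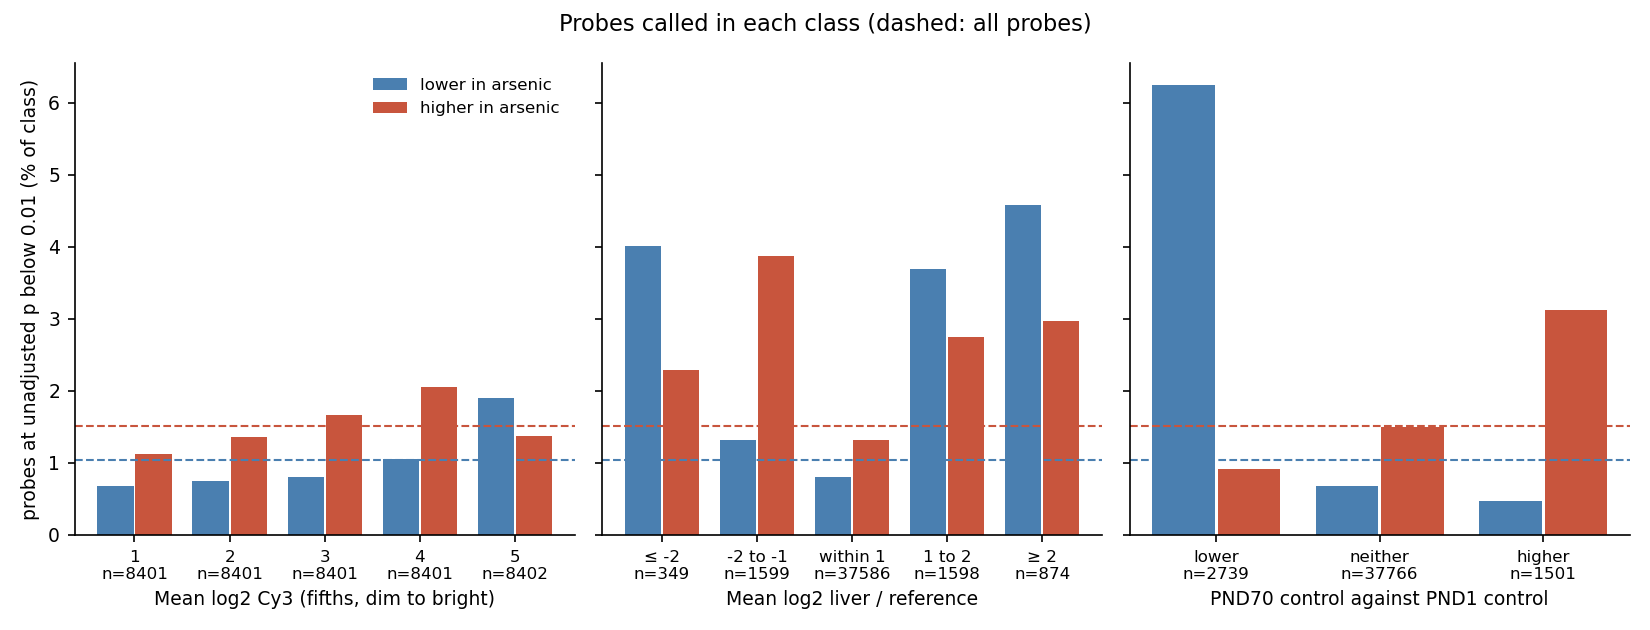
Percent of probes called lower (blue) and higher (red) in arsenic-exposed newborns, by 5 classes of Cy3 signal, by level over the reference and by the normal change with age, with n per class and dashed lines for all probes. The tallest bar is the class that normally declines, with 6.24% called lower.

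The sharing was removed by taking the age class from 1 newborn control array and the arsenic difference from the other 2, for each control in turn. Each age class then rested on 1 newborn array, which has no spread of its own. Between 27.3% and 34.5% of the probes called lower then fell in the declining class, which held 6.69% to 7.29% of probes. The higher calls did not keep their split. With shared controls 25 lay in the declining and 47 in the rising class, but in the 3 turns 45, 41 and 51 lay in the declining class and 43, 32 and 23 in the rising class. The rising class, with 3.93%, 3.61% and 3.79% of probes, held 8.46%, 4.76% and 3.34% of the higher calls. The median difference over the declining class was -0.069, -0.047 and -0.019, and over the rising class 0.029, 0.045 and 0.022, in the 3 turns. These splits still compare the same 3 exposed mice, and no test was made of them.

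The shift of each whole class was small and was not tested. Over the 2739 declining probes the median difference from the control mean was -0.0048, -0.080 and -0.14 in the 3 exposed mice. The 3 controls, each against the other 2, gave -0.079, -0.0030 and 0.086, so that exposed and control mice overlapped among the declining probes. Over the 1501 rising probes the exposed mice gave 0.0018, 0.052 and 0.042 and the controls 0.0069, 0.021 and -0.025. There 2 of the 3 exposed mice lay above every control. In both classes the first exposed mouse lay within the range of the controls. Exposed mice were set against 3 controls and each control against 2, so the 2 kinds of value do not have the same error.

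**Figure D4:**
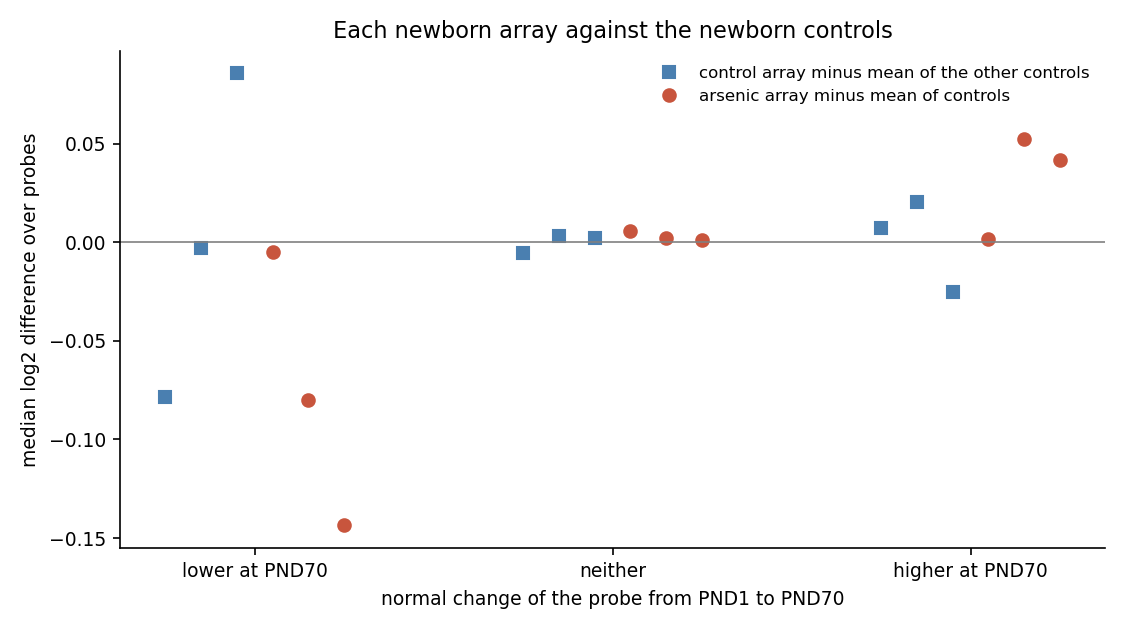
Median log2 difference over the probes of each age class for every newborn array, against the mean of the 3 controls for exposed mice and of the other 2 for controls. Exposed and control mice overlap among the declining probes, where 1 exposed mouse lies at -0.14 and 1 control at 0.086.

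The 171 probes that were lower in exposed newborns and normally decline had a median level of 0.94 in control newborns, 0.35 in exposed newborns and -0.59 in unexposed mice of 10 weeks. Their median difference with exposure was -0.50 and with age -1.84. For 169 of the 171 the exposed newborn mean stayed above the unexposed mean of 10 weeks. The 47 probes that were higher and normally rise had median levels of 0.40, 1.14 and 2.51 in the same order of groups. These members were chosen by both differences, and the levels are given as a description.

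Probes that share sequence were set side by side within each array, since 2 such probes may read the same or closely related transcripts. Groups of probes with shared sequence held 1918 probes, and 49 of these (2.55%) were called, beside 2.56% of all probes. Among 1432 pairs of probes that share at least 20 consecutive bases, both probes were called in 20 pairs. In each of the 20 the 2 differences had the same sign, 9 pairs higher and 11 lower. Of the 11 lower pairs, 6 are combinations of 4 probes of the 5-probe family, and the 20 pairs come from 14 groups of probes with shared sequence. Pairs picked because both probes were called are a description. In the 34 pairs with 1 called probe, 33 had differences of the same sign, and so had 70.9% of the 1378 pairs with neither called. Z00035148-1 and Z00057355-1 were 0.94 and 0.99 lower in log2 units, with differences of -0.94 ± 0.16 and -0.99 ± 0.20 (SE). Z00006569-1 and Z00068262-1 were 0.44 and 0.43 higher. Such pairs share their mice and are not replicates of the exposure.

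The family of 5 probes with a 21-base shared core is described next. All 5 differences were below 0, from -0.64 to -0.27. Of the 5 probes, 4 were called lower at a limma unadjusted p of 0.01, beside 1.04% of all probes. Z00030500-1 read 1.04, 0.44 and 0.55 in controls against 0.26, 0.020 and -0.16 in exposed mice, with no overlap of the groups. Z00030505-1, which did not pass, read 0.52, -0.090 and 0.34 against 0.16, -0.094 and -0.11, and there the groups overlapped. The median of the family's differences between birth and 10 weeks in unexposed mice was -2.14. Of 47 groups of at least 4 probes that share sequence, 15 had every difference below 0 and 8 every difference above 0. At least 2 probes were called in 3 of the 47, which are this family and the next 2 groups. Over all groups with shared sequence 2.55% of probes were called, beside 2.56% of all probes. A group of 12 probes that includes Z00030290-1 had 12 differences below 0, with 3 called and a median of -0.29, and a group of 5 that includes Z00005005-1 had 5 below 0, with 2 called and a median of -0.33. The first control mouse was the highest of the 6 mice in all 5 probes of the family shown above and in most probes of these other two.

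A few probes could be placed by an exact match to RefSeq sequence around transcription starts (GRCm38.p6). Of the probes, 116 matched at least 30 bases at the start of 1 gene in its orientation, and 4 of them (3.45%, beside 2.56% of all probes) were called, 3 higher and 1 lower. Of the 876 genes on the lists of pathways and cell types drawn up for this liver, 9 were reached this way and 2 were called, a number too small to set against the 2.56% of all probes.

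Z00032989-1 lies at the start of Cyp3a11, a cytochrome P450 of drug and steroid metabolism that is abundant in adult liver (chr5:145879805-145879854, minus strand, the first 50 transcribed bases). It read 2.35, 3.08 and 2.23 in controls and 2.66, 4.64 and 4.32 in exposed mice. The last 2 exposed mice stood above every control, and the first stood below the highest control, so the groups overlapped. The difference was 1.32 ± 0.41 (SE), with a limma adjusted p of 0.37, and unexposed mice of 10 weeks read 5.94. The probe passed in 2 of 6 fits that left out 1 newborn array. Close relatives of this gene could bind the probe.

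Z00063896-1 lies at the start of Taldo1, the transaldolase of the pentose phosphate pathway (chr7:141392175-141392209, plus strand). It read 0.42, 0.63 and 0.53 in controls and 0.37, 0.019 and 0.24 in exposed mice, with no overlap, and its difference was -0.32 ± 0.097 (SE, limma adjusted p = 0.37). It passed in 2 of 6 fits that left out 1 newborn array and in 6 of 17 alternatives. Z00072832-1 lies at the start of Pla2g2d, a secreted phospholipase A2 (chr4:138775738-138775784, plus strand). It read 2.32, 1.94 and 2.12 in controls and 2.71, 2.59 and 2.51 in exposed mice, again with no overlap. Its difference was 0.48 ± 0.13 (SE, limma adjusted p = 0.30). Unexposed mice of 10 weeks read 0.26 for Z00072832-1 and 0.20 for Z00063896-1. The fourth called probe lies at the start of the predicted gene Gm9376, was 0.49 ± 0.12 (SE) higher and read 0.13 in unexposed mice of 10 weeks. Probes at the starts of Prdx1, Hspa1a, Sec61b, Rpl10a, Fau, Acta2 and Uty, which encode a peroxiredoxin, a heat shock protein, a subunit of the protein export channel, 2 ribosomal proteins, smooth muscle actin and a Y-linked relative of a histone demethylase, had differences from -0.19 to 0.24 and did not pass. The probes of Hspa1a and Uty had mean log2 Cy3 signals of 5.92 and 6.29, within the dimmest of the 5 classes (5.71 to 6.46), so a difference of these may not have been detectable.

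Base composition also went with the share of probes called. Of the 7270 probes with at most 35% G and C, 3.40% were called, and of the 3374 with over 55%, 1.54% were called. Probes that hold AATAAA or ATTAAA, searched in the probe's own strand and found in 9.73% of probes, were called in 3.45% of cases against 2.46% of the others. The former were also brighter, with a median log2 Cy3 signal of 7.85 against 7.43.

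The reference RNA was the same on every array, and the Cy5 channel was also compared alone. A Cy5 difference that Cy3 shares on the same spots cancels in the ratio. In this channel, compared between the same 2 groups, 662 probes (1.58%) passed an unadjusted p of 0.01, and 36 of them were among the 1074. The called probes that were lower in the ratio had a median difference of -0.39 in Cy3 and -0.035 in Cy5. A Cy3 difference of the same sign as the ratio was found in 433 of these 437 and in 632 of the 637 higher probes. Cy3 is part of the ratio by which the probes were called, so these counts are a description. In Cy3 alone 205 of the 437 were also called, where 1.89% of all probes were called. The called probes that were higher in the ratio had a median of 0.24 in Cy3 and -0.099 in Cy5, and 105 of 637 were also called in Cy3 alone. The Cy5 difference was larger than the Cy3 difference in 148 of the higher and 33 of the lower probes. Z00034897-1, described above, is such a case. Z00024186-1 differed by 3.00 in Cy3 and by 1.17 in Cy5.

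**Figure D5:**
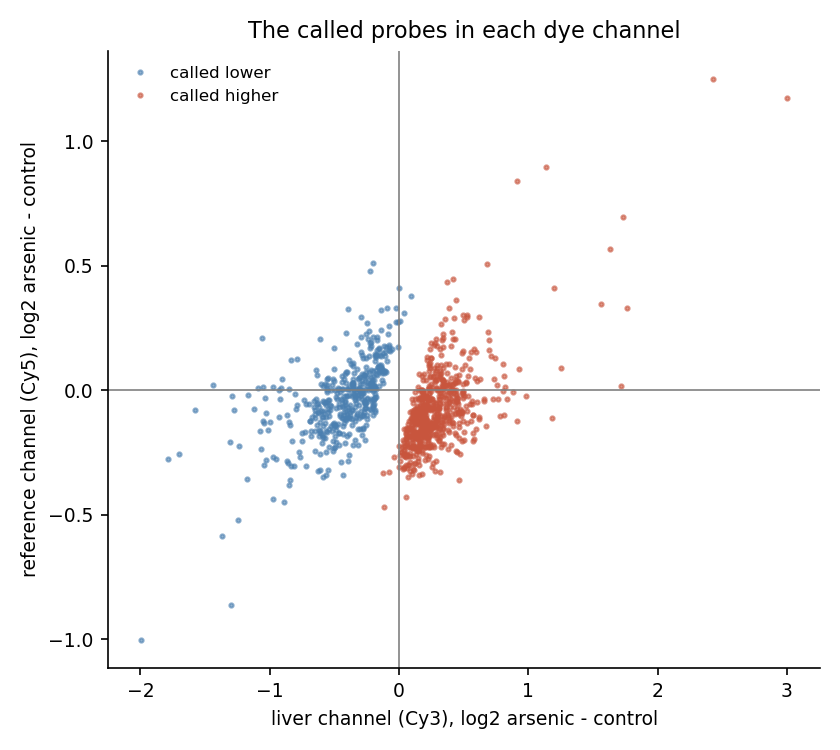
Log2 difference, arsenic minus control, of the 1074 called probes in the liver channel (Cy3, horizontal) and the reference channel (Cy5, vertical), with lower calls in blue and higher calls in red. Higher calls lie mostly below 0 in the reference channel, with a median of -0.099.

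Calls that did not depend on 1 mouse or 1 setting were a minority. Of the 1074 probes, 297 were called in the same direction in all 6 fits that left out 1 newborn array, 155 lower and 142 higher. In all 17 alternative fits 99 were called, 73 lower and 26 higher. Of those 73, 46 normally decline with age and 1 normally rises, beside 6.52% and 3.57% of all probes. The age class and these fits share newborn control arrays, so a high or low control value moves both together. The named lower probes were among the 73. Of the 26 higher probes, 4 normally decline and 3 normally rise.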

How the data were processed

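Members and lists were chosen with earlier results of these data known. Liver RNA (Cy3) and reference RNA (Cy5) were hybridized by the authors to 44K arrays, and the output of Feature Extraction A.7.5.1 was deposited. As deposited, the intensity of a spot is its mean signal and local background in each dye, linear and not normalized across arrays. The deposited log10 ratio was used, with its sign turned, only as an alternative. The authors' own quantile normalization and lowess smoothing came after this output and were redone here, without their mean-centring.

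Normexp background correction (offset 50, an addition), quantile normalization of each channel over 12 arrays, log2 of Cy3 over Cy5 and loess (span 0.3) were applied. Controls were left out, spots the scanner software marked as outliers (94 to 172 per newborn array) counted as missing, saturation was no reason to drop a spot, and probes spotted more than once were averaged. The fit, by limma 3.58.1 (R 4.3.3), had a mean for each of 4 groups (8 residual and 3.09 prior degrees of freedom) in place of the methods' 2-way analysis, and was tested on simulated data. Calls used a p of 0.01, named in the methods and read as unadjusted, and a Benjamini-Hochberg adjusted p of 0.05. Named probes are the 5 of smallest p per direction among called probes whose groups do not overlap, and the largest called difference per direction. An exact permutation test of 3 against 3 mice cannot go below 0.1. The number of arrays limits the precision. No 2 newborn arrays shared more than 0.0262% identical Cy3 signals. Gene lists were not tested, since no table of gene names for the probes was used here. The 3 arrays of arsenic after weaning entered only an alternative fit.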

Additional observations from a re-analysis of the deposited data

Results flagged for a closer look

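The measured difference of Z00063258-1 was not the same at the 2 ages. Its arsenic difference was -0.73 at birth and 0.020 at 10 weeks, where exposed mice read -0.21 ± 0.016 and unexposed mice -0.23 ± 0.035 (SD, n = 3 each). The difference between the 2 effects was 0.75 ± 0.083 (SE), with a limma adjusted p of 0.041, and 2 probes of the whole array passed this test. The adjusted p ranged from 0.0040 to 0.29 over 16 alternative fits and was below 0.05 in 6 of them. At 10 weeks its log2 Cy3 signal was 6.23 to 6.39 on the 6 arrays, in the range of the dimmest class of the newborn arrays (5.71 to 6.46) though above 95% of the negative controls, so a difference at that age may not have been detectable. All 10-week arrays were processed on another day than the newborn arrays, so day and age cannot be told apart. Groups of 3 were not tested for outlying samples.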

How the results depend on the processing

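The number of probes called (1074) stayed within 1.5 times under most alternatives, but was 399 with the newborn arrays alone, 1 at an adjusted p of 0.05 and 662 in the reference channel alone, which was chosen after seeing the data. Leaving out 1 newborn array gave 670 (without PND1 arsenic replicate 3) to 2932 (without PND1 arsenic replicate 1). The number at an adjusted p of 0.05 (1) was 0 without background subtraction (1109 at an unadjusted p of 0.01 by limma), with the scanner software's ratio (1033), with the liver channel alone (796) and with the newborn arrays alone (399), 2 with ratios quantile normalized or array weights, 3 with unmoderated variances, 19 with all 15 arrays, and 1 to 1378 without 1 newborn array. The share of called probes that were higher (59.3%) turned to 35.6% in the liver channel alone and to 44.8% without PND1 control replicate 1, and ranged up to 67.4% without 1 array. The median difference of the rising class (0.042) was 0.10 in the liver channel alone and 0.10 with the replicate block, and 0.026 with array weights. That of the declining class kept its sign, from -0.12 to -0.040 without 1 array. Of the 11 named probes, 8 passed an unadjusted p of 0.01 in all 17 alternatives, Z00023335-1 and Z00034897-1 in 16, and Z00024186-1 in 8. None changed sign. The cause of these changes was not tested. The newborn fit had fewer arrays and took its spread from them alone.

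Same-numbered newborn arrays deviated from their group means with correlations of -0.34, -0.085 and -0.29, none of them positive. These few values do not settle whether the numbers pair the mice. With the replicate number as a block, 1125 probes were called.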
